A study of Mus musculus with 2 samples.

Results

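Small GTPases, heterotrimeric G proteins and the machinery of vesicle traffic were examined in LIF-deficient mouse morulae. The members were the gene spots whose name begins with one of a set of family words (such as RAB, RAS, RAN, ADP-ribosylation, guanine nucleotide, syntaxin, coatomer, clathrin, adaptor, SEC or caveolin), leaving out 8 spots with secreted or secretory names. This gave 136 spots with 130 distinct gene names, of 8735 gene spots with 6113 names on each array. The letters SEC also took in secretin and secretogranin III, which belong to other families and were kept in a group of their own.

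Leukemia inhibitory factor (LIF) is a cytokine of the interleukin 6 family that acts on the early embryo. B6CBF1 zygotes were collected from the oviduct, brought to the stage with both pronuclei visible and injected into the cytoplasm with LIF-siRNA, which lowers the transcript it matches, or with a scrambled siRNA as the control, at 1.0 fmol in 1 pl per the labels, while the study's methods and table legends give other doses. RNA from whole embryos labelled as 4 d old, at the morula stage per the design text, was compared on 2 two-colour cDNA arrays. LIF-siRNA-treated embryos were in the red dye Cy5 and scrambled-siRNA-treated embryos in the green dye Cy3 on both arrays, so a dye effect cannot be told apart from the treatment. Embryos of both groups were injected, and no uninjected group was compared here. RNA was pooled over embryos, and nothing says whether the arrays held separate pools, so the p-values measure only the spread between these arrays, which may be technical. One label field speaks of embryonic stem cells without treatment in place of embryos. The assignment here follows the titles, source names and dyes. No spot is named for LIF, so the knockdown itself was not checked here.

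Small GTPases are switches that are active when bound to GTP and inactive when bound to GDP. Exchange factors load GTP, GTPase-activating proteins speed its hydrolysis, and dissociation inhibitors hold the GDP form away from membranes. Ras proteins relay growth factor signals, Rab and Arf proteins direct vesicles between membranes, and Ran drives transport through the nuclear pore. Coats and adaptors bud vesicles, and SNARE proteins fuse them with their target. During compaction the outer blastomeres of the early embryo form an apical surface with traffic of its own.

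The value of a spot is the log2 ratio of LIF-siRNA over scrambled siRNA on each array, and a negative value means less signal in LIF-siRNA-treated embryos. Of the 136 member spots, 130 were tested, that is, on each array Cy5, Cy3 or both stood well above background. The other 6 were synaptotagmin 9, synaptotagmin 13, the binding protein of synaptosomal-associated protein 25 kDa, the G protein gamma transducing subunit 2, regulator of G-protein signaling 5 and the 22 kDa caveolin. All channels stood well above background for 124 members. No gene spot was saturated, and the median signal over background was between 4.83 and 6.60 in the channels. The 4 early embryo markers found by name, were well above background in every channel. POU5F1 had a log2 ratio of -0.28 and 0.05, cadherin 1 of 0.69 and 0.26, keratin 19 of 0.22 and -0.14 and keratin 8 of -1.73 and -2.16. Their summed processed signal was 17728 and 18387 in Cy5 and 20052 and 24316 in Cy3. Among 9 spots of blood and maternal tract markers, 6 were so and 1 was so in no channel. Their summed processed signal was 2917 and 2756 in Cy5 and 4712 and 4170 in Cy3, with embryonic hemoglobin X as the main source of Cy3 signal. The mean log2 ratios of the 9 spots lay on both sides of 0, from -1.29 for hemoglobin X to 1.80 for inhibin beta-B. The part of these cells in the results was not tested. In RNA from whole embryos, fewer cells of a type and less RNA per cell cannot be told apart.

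The lowest values among the members were those of 3 GTPases. RhoN, RhoG and RhoB had a log2 ratio of -1.92 to -1.76, and RhoC, a close relative of RhoB, had one of 1.03. The study's criteria were a ratio above 2 or below 0.5 with a signal above 1000 in either channel, and how both arrays were combined is not stated. Applied here to the mean ratio and the mean signal of both arrays, 0 members were higher and 2 members, RhoN and RhoG, were lower. With ratio and signal required on each array, RhoG alone was lower. Over all gene spots the same criteria called 2.16% higher and 2.19% lower. The signal minimum was passed by 74 members, of which 0 were called higher and 2 lower, beside 5.33% and 5.42% of all gene spots past it. Without the minimum, 4 tested members had a mean ratio above 2 and 4 had one below 0.5, beside 6.96% and 5.27% of all tested spots. In limma with Benjamini-Hochberg adjustment over 8079 gene spots, 0 members passed an adjusted p of 0.05, and 0.0% of all spots did. At an unadjusted p under 0.05, limma counted 18 members higher and 14 lower, beside 15.9% and 14.8% of all tested spots. A one-sample test without limma's pooling of the variance counted 8 members at an unadjusted p under 0.05, beside 10.7% of all tested spots, and 0 after adjustment. The lowest adjusted p in limma was 0.058 for members and for all spots alike, so no member is called changed by the test.

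Across the 130 tested members the median log2 ratio was -0.06, beside -0.004 for all tested spots. It was -0.02 on array 1 and -0.10 on array 2. The ratio was above 0 on both arrays for 39 members and below 0 on both for 54, which is 30.0% and 41.5%, beside 36.7% and 36.8% of all tested spots. For the other 37 the arrays differed in sign. A mean within 0.5 of 0 on the log2 scale was found for 84 members (64.6%) and for 60.1% of all tested spots. The median SD between the arrays was 0.22 for members and 0.25 for all tested spots, so a member with a ratio of that size is within the replicate spread. The array ratios correlated across members with a Pearson r of 0.546, and of 0.451 without RhoN, RhoG and RhoB, beside 0.639 over all tested spots. These correlations are across genes that share both arrays, and genes are not independent replicates.

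**Figure D1:**
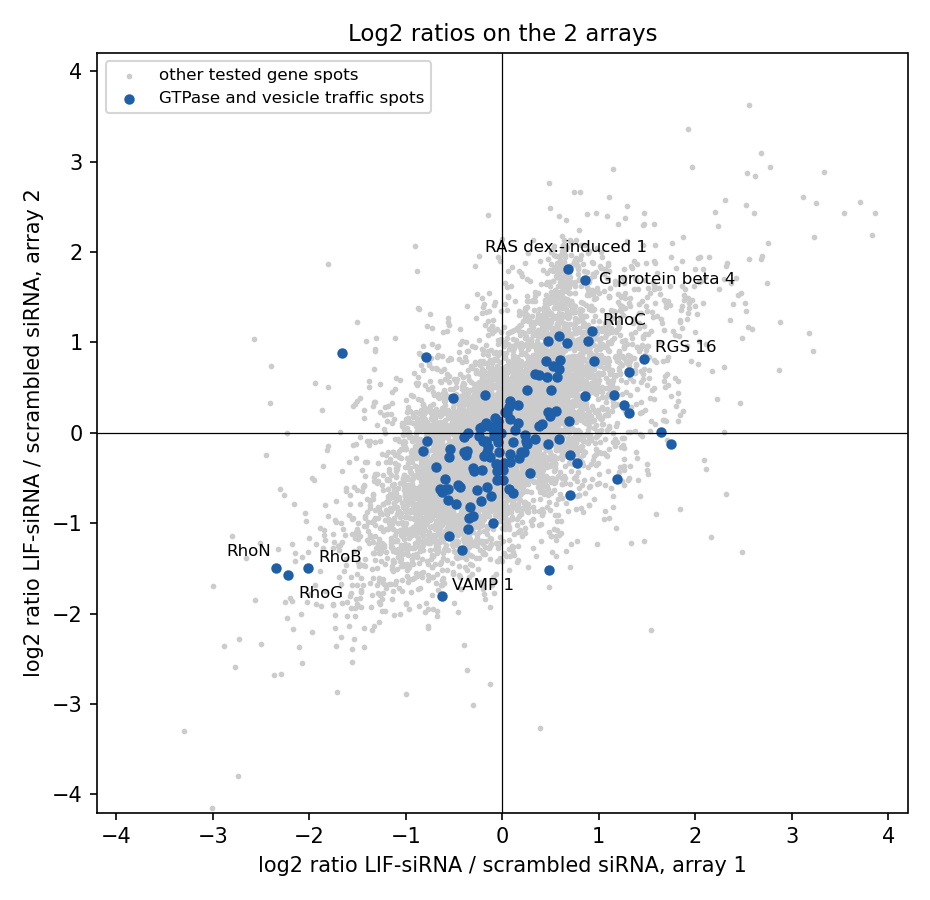
Log2 ratio of LIF-siRNA over scrambled siRNA on array 1 (horizontal axis) and array 2 (vertical axis) for 8079 tested gene spots, with the 130 tested members in blue and the others in grey. RhoN, RhoG and RhoB lie apart from the other members at the lower left, between -2.35 and -1.50 on both arrays.

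RhoN, RhoG and RhoB were the lowest of the tested members. RhoN, which belongs to the Rnd proteins that stay bound to GTP, had a processed signal of 261 and 315 in Cy5 and of 1328 and 891 in Cy3 on arrays 1 and 2. Its log2 ratio was -2.35 and -1.50, with a mean of -1.92 (SE 0.28, n = 2) and an adjusted p of 0.0596 in limma. RhoG, which acts upstream of Rac, had 279 and 383 in Cy5 and 1303 and 1144 in Cy3. Both Cy3 values of each of these spots were above both Cy5 values, so the groups did not overlap. That was so in this direction for 41 of 130 tested members and 31.2% of all tested spots, and in the other for 36 members and 31.4%, so a lack of overlap is common with 2 arrays. The log2 ratio of RhoG was -2.23 and -1.58, with a mean of -1.90 (SE 0.25, n = 2) and an adjusted p of 0.058 in limma. RhoB, an endosomal GTPase whose transcript is short-lived, had 162 and 143 in Cy5 and 657 and 404 in Cy3. Its groups did not overlap either, and its log2 ratio was -2.02 and -1.50, with a mean of -1.76 (SE 0.24, n = 2) and an adjusted p of 0.058 in limma. RhoB missed the stated criteria on signal, since its Cy3 mean of 530 was below the minimum. RhoN, RhoG and RhoB were numbers 31, 34 and 52 from the low end of the 8079 tested spots, and 0.644% of the tested spots had a mean log2 ratio at or below that of RhoB.

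With normexp correction and loess in place of the deposited background correction and lowess, the mean log2 ratio of RhoB was -1.31 and that of RhoN and RhoG was -1.62 each. RhoN, RhoG and RhoB passed an adjusted p of 0.05 in limma when each array was centred on its median (0.0404 to 0.0415), when both channels had to be well above background (0.0437 to 0.0463) and with an intensity trend (0.00915 to 0.0137), where 4.27%, 3.09% and 14.0% of all tested spots passed. The medians taken off by the centring were only 0.0042 on array 1 and -0.0025 on array 2, and the mean of RhoG stayed at -1.90. The passes with centring therefore show how near the threshold these adjusted p-values lie. Over all alternatives the adjusted p of RhoG ranged from 0.00105 to 0.478, the highest being that of the test without pooled variance. RhoG alone passed with normexp correction (0.0498), beside 1.83% of all tested spots.

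RhoC ran the other way. Its processed signal was 835 and 1062 in Cy5 and 440 and 486 in Cy3, so both LIF-siRNA values were above both control values. The log2 ratio was 0.92 and 1.13, with a mean of 1.03 (SE 0.21, n = 2) and an adjusted p of 0.0755 in limma, and the Cy5 mean of 948 kept it below the stated signal minimum. It was number 519 from the high end of all tested spots. RAS-related C3 botulinum substrate 1, the Rac protein that builds lamellipodia, had 2548 and 2864 in Cy5 and 1702 and 1751 in Cy3, a log2 ratio of 0.58 and 0.71 (adjusted p 0.123 in limma). Its groups did not overlap. The A2 homolog, the spot of RhoA, had 6713 and 8092 in Cy5 and 6501 and 6960 in Cy3, with a log2 ratio of 0.05 and 0.22, and its groups overlapped. RhoD had -0.14 and -0.16 and RAS-related C3 botulinum substrate 2, the Rac of blood cells, had -0.16 and -0.09, both within the usual spread between arrays.

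**Figure D2:**
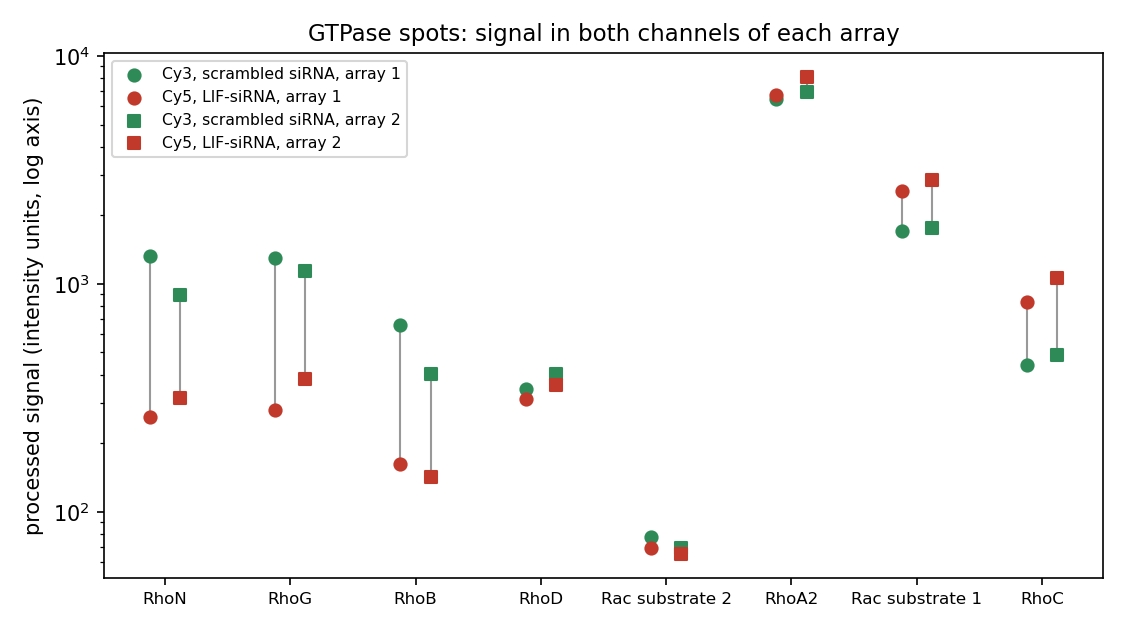
Processed signal (log axis, intensity units) of 8 GTPase spots in Cy3 (scrambled siRNA, green) and Cy5 (LIF-siRNA, red), with circles for array 1, squares for array 2 and a line joining both channels of an array. For RhoN, RhoG and RhoB both red points lie below both green ones, and for RhoC and Rac substrate 1 above; only the channels of 1 spot are comparable, not the spots among themselves.

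The promoters of RhoB and RhoG, which were lower, and of RhoC, which was higher, are shown because these spots stood at opposite sides of 0. Each is the 250 bases before the RefSeq gene start in build GRCm38.p6, 5′ to 3′ on the gene's strand. Capitals mark each CCAAT box (CCAAT) and GC box (GGGCGG) on either strand.
RhoB, chr12:8500010-8500259, minus strand: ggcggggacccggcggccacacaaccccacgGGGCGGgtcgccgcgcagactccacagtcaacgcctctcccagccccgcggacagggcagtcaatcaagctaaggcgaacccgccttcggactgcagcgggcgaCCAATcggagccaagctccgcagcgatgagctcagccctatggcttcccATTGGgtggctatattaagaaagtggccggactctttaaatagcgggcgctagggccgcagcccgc
RhoG, chr7:102250119-102250368, minus strand: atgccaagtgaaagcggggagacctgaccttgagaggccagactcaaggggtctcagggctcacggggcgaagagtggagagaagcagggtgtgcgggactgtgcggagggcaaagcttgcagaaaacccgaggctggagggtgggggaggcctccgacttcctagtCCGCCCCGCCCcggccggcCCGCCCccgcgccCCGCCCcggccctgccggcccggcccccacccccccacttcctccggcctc
RhoC, chr3:104788784-104789033, plus strand: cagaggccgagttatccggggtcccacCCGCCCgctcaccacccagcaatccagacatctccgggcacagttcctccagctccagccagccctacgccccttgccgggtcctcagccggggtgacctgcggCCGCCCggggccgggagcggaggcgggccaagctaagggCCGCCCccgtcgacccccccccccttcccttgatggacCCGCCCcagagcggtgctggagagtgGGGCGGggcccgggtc
RhoB held 2 CCAAT boxes and 1 GC box, RhoG 0 and 4, and RhoC 0 and 5, and adjoining GC box matches of RhoG share a base. A symbol spelled in the name was found in RefSeq for 27 of the 136 member spots, giving 19 genes with a promoter. Of these 19, 42.1% held CCAAT and 63.2% held GGGCGG, beside 34.5% and 32.9% of 27025 promoters of the same length. The letters TTCNNNGAA, the motif of STAT factors, were in none of the promoters shown, in 3 of the 19 (15.8%) and in 7.18% of all. TATAAA, the TATA box, was in 1 of the 19 (5.26%) and in 13% of all. The 19 genes were taken by the spelling of their names, whatever their ratio, and no test compared these shares. A match describes the letters and is not a measured binding site. RhoN is named only.

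The founding Ras genes were near 0. Harvey ras had a processed signal of 2302 and 2147 in Cy5 and 1932 and 2334 in Cy3, a log2 ratio of 0.25 and -0.12. Kirsten ras had 5320 and 5163 in Cy5 and 4755 and 4792 in Cy3, a log2 ratio of 0.16 and 0.11 (adjusted p 0.688 in limma). Its Cy5 values were both above its Cy3 values, by little. Neuroblastoma ras had 3558 and 4106 against 3582 and 4107, a log2 ratio of -0.01 and -0.0003. The spot named RAS, dexamethasone-induced 1, a Ras-like protein induced by glucocorticoids, had the highest mean of the Ras and Rap group. It was dim, with 335 and 466 in Cy5 and 209 and 133 in Cy3, and its log2 ratio was 0.68 and 1.81, with a mean of 1.25 (SE 0.33, n = 2) and an adjusted p of 0.0972 in limma. With normexp correction the mean of RAS, dexamethasone-induced 1 was 0.91. The SH3-domain-binding proteins of Ras-GTPase-activating protein, known from stress granules, had -0.83 and -0.20 for protein 2 and -0.39 and -0.21 for the other. Of 11 tested spots 4 were higher and 4 lower on both arrays, and the median was 0.07, with -0.12 on array 2 alone.

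**Figure D3:**
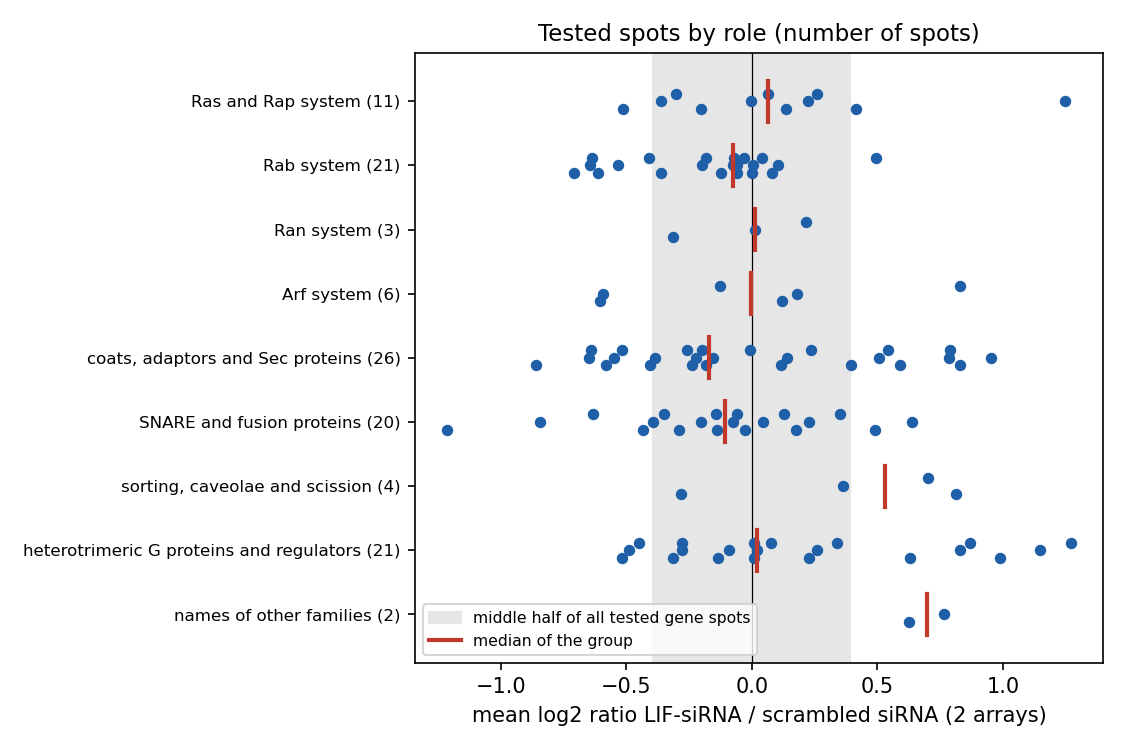
Mean log2 ratio over both arrays (horizontal axis) of the tested members of 9 roles, by role, with the number of spots in parentheses. The red line is the median of the group and the grey band spans the middle 50% of all tested gene spots; the medians of the groups with more than 4 spots lie inside the band.

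Rab GTPases direct each step of vesicle transport. Of 21 tested spots of the Rab system, which holds Rab GTPases and proteins that bind or modify them, 2 were higher and 11 lower on both arrays, with a median of -0.07 and a range from -0.71 to 0.50. RAB17, a Rab of epithelial cells and their apical recycling, was lowest. Its signal was 904 and 884 in Cy5 and 1155 and 1849 in Cy3, a log2 ratio of -0.35 and -1.06 (adjusted p 0.154 in limma). Its groups did not overlap. RAB9, of the route from late endosomes to the Golgi, had -0.69 and -0.38, RAB7, of late endosomes, had -0.55 and -0.27, and RAB18, of lipid droplets, had -0.54 and -0.18. In dim spots, with signals between 101 and 228, RAB4A, of fast recycling, had -0.34 and -0.94, with a mean of -0.42 under normexp correction. RAB3A, of regulated secretion, had -0.48 and -0.79. RAB11B, RAB11a, RAB23, RAB33B, RAB3D, RAB24 and RAB2 had means between -0.20 and 0.11. RAB11a and RAB23 each had a brighter and a dimmer spot. The dimmer RAB11a spot had -0.51 and 0.39, so its mean near 0 comes from arrays that differed in sign. The arrays also differed in sign for RAB11B, RAB3D, RAB2 and both spots of RAB23. RAB10 had 5421 and 5343 in Cy5 and 4273 and 3412 in Cy3 in its brighter spot, with a log2 ratio of 0.34 and 0.65, the highest mean of the Rab spots. Its dimmer spot had a mean of 0.04. The b subunit of RAB geranylgeranyl transferase, which attaches the lipid anchor of Rab proteins, had -0.08 and -0.03. The spot named Rab6, kinesin-like, a mitotic kinesin, had -0.30 and -0.92.

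The Ran and Arf systems held few spots. RAN itself was bright, with 17019 and 15514 in Cy5 and 19750 and 20626 in Cy3, so both control values were above both LIF-siRNA values, and its log2 ratio was -0.21 and -0.41 (adjusted p 0.368 in limma). RAN binding protein 16 had 0.08 and 0.35. ADP-ribosylation factor 1, which recruits coatomer to the Golgi, had 8404 and 9470 in Cy5 and 12428 and 14561 in Cy3. Its log2 ratio was -0.56 and -0.62 (adjusted p 0.138 in limma), and its groups did not overlap. ADP-ribosylation-like factor 6 interacting protein had -0.58 and -0.63. ADP-ribosylation-like 4, a relative found at the plasma membrane, was the highest of the group with 0.58 and 1.07, a mean of 0.83 (adjusted p 0.103 in limma).

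Coats, adaptors and Sec proteins gave 26 tested spots, of which 10 were higher and 12 lower on both arrays, with a median log2 ratio of -0.17. Within the AP-2 adaptor, which gathers cargo for clathrin at the plasma membrane, the subunits stood at opposite ends of the group. The mu1 subunit had 2658 and 2395 in Cy5 and 1437 and 1182 in Cy3, a log2 ratio of 0.89 and 1.02 with a mean of 0.95 (SE 0.21, n = 2) and an adjusted p of 0.0805 in limma. The alpha 2 subunit was dim, with 215 and 149 in Cy5 and 288 and 365 in Cy3, and its log2 ratio was -0.42 and -1.30, with a mean of -0.86 (adjusted p 0.13 in limma). The groups did not overlap for either subunit. With normexp correction the mean of the alpha 2 subunit was -0.60. Clathrin light chain, part of the coat itself, had 9578 and 8827 in Cy5 and 14134 and 14739 in Cy3, a log2 ratio of -0.56 and -0.74 (adjusted p 0.123 in limma), also without overlap. Coatomer alpha, of the coat that returns proteins from the Golgi, had -0.46 and -0.58, while the beta prime subunit had 0.19 and -0.21. The epithelial adaptor subunit AP-1 mu 2 had -0.62 and -0.65. Of 13 tested AP adaptor spots, 4 were higher and 7 lower on both arrays.

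Of 10 tested Sec spots 6 were higher and 3 lower on both arrays, with a median of 0.25. SEC8 and SEC15 are subunits of the exocyst, which tethers vesicles at the plasma membrane. SEC8 had 1518 and 1181 in Cy5 and 632 and 953 in Cy3, a log2 ratio of 1.26 and 0.31. SEC15 had 3233 and 1876 in Cy5 and 1449 and 1403 in Cy3, a log2 ratio of 1.16 and 0.42. Both had a mean of 0.79 (adjusted p 0.162 and 0.132 in limma), and the groups overlapped for neither. SEC61 gamma, of the channel that takes proteins into the endoplasmic reticulum, had 0.56 and 0.62, the alpha subunit had -0.004 and -0.39, and alpha subunit 2 had 0.02 and -0.33. SEC23B, of the coat that leaves the endoplasmic reticulum, had 0.55 and 0.24. SEC22-like 1 had a bright and a dim spot under its name, and the bright spot had 0.46 and 0.62. The other, a dim one with signals between 37.3 and 56.9, had -0.16 and -0.60, with a mean of -0.05 under normexp correction.

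**Figure D4:**
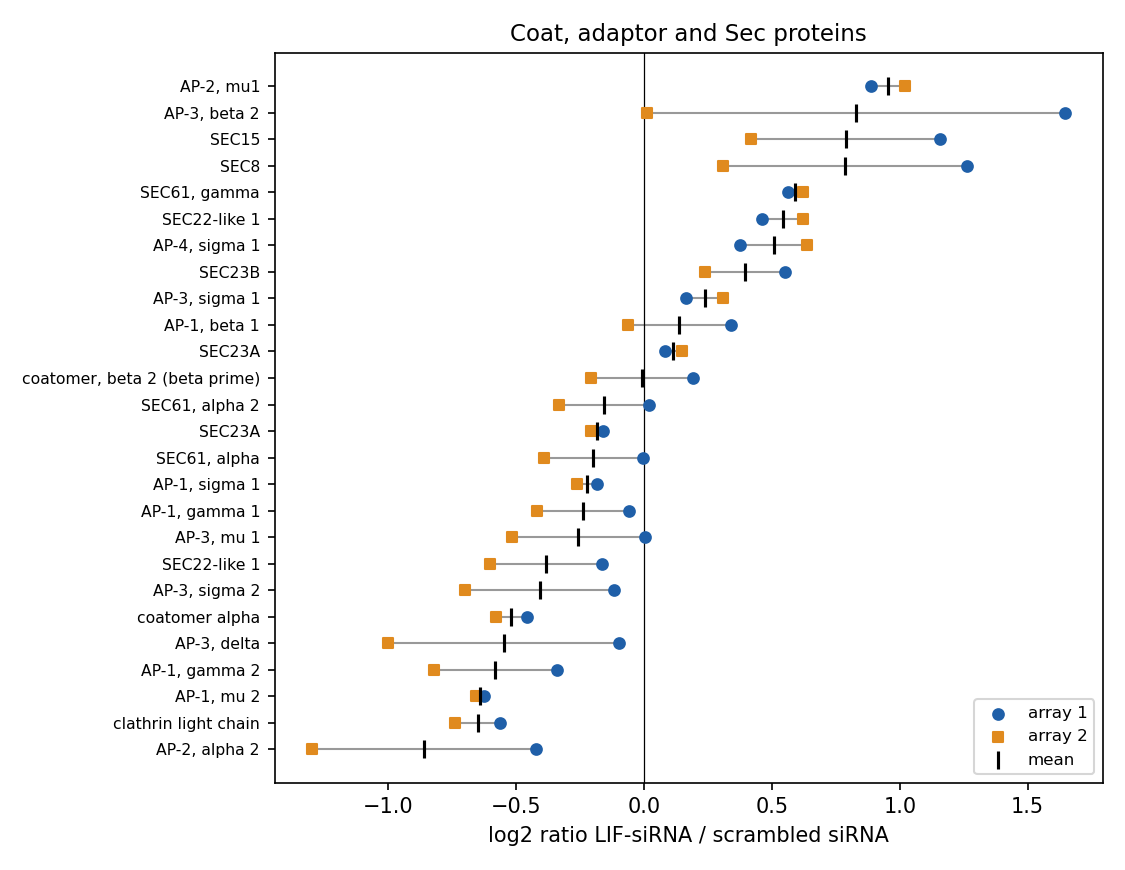
Log2 ratio of LIF-siRNA over scrambled siRNA for 26 coat, adaptor and Sec spots, sorted by their mean (black mark), with array 1 as circles and array 2 as squares joined by a line. AP-2 mu1 is at the top with 0.89 and 1.02, AP-2 alpha 2 at the bottom with -0.42 and -1.30, and names that appear on more than 1 line are separate spots.

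SNARE and fusion proteins gave 20 tested spots of 23, of which 5 were higher and 9 lower on both arrays, with a median of -0.11. Vesicle-associated membrane protein 1 was lowest, but dim, with 63.8 and 47.5 in Cy5 and 98.6 and 166 in Cy3. Its log2 ratio was -0.63 and -1.80, with a mean of -1.22 (SE 0.34, n = 2) and an adjusted p of 0.103 in limma. With normexp correction its mean was -0.60. Syntaxin 4A, the SNARE of the plasma membrane in most cells, had 1158 and 1358 in Cy5 and 1813 and 2086 in Cy3, a log2 ratio of -0.65 and -0.62 (adjusted p 0.124 in limma), with no overlap between groups. Syntaxin binding protein 2, a partner of syntaxins in epithelia, had -0.55 and -1.14. Syntaxin 3, the SNARE of apical membranes, had -0.07 and -0.34. Of 5 tested syntaxins 0 were higher and 3 were lower on both arrays. The widely expressed vesicle-associated membrane protein 3 had 0.03 and 0.23, and synaptosomal-associated protein 23 kD, its plasma membrane partner, had -0.24 and -0.04. Vesicle-associated membrane protein 4, of the Golgi network, had 0.50 and 0.48.

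In the group of sorting, caveolae and scission, dynamin, which cuts vesicles from the membrane, had 0.59 and 0.81, dynamin 2, the form found in all cells, had 0.25 and 0.47, and sorting nexin 3 had -0.36 and -0.20. Caveolin 3, the muscle caveolin, was not well above background in Cy3 on either array. Its ratio is not interpreted on its own here. Caveolin 3 was still a tested spot, since Cy5 was well above background, so its ratio enters the medians of this group. The median log2 ratio of the group was 0.53 with caveolin 3. It was 0.36 when both channels had to be well above background, which leaves caveolin 3 out. Secretin had 0.45 and 0.80, and secretogranin III had 1.32 and 0.22.

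Heterotrimeric G proteins relay signals from receptors, with an alpha subunit that binds GTP and a beta-gamma pair, and regulators of G-protein signaling speed the hydrolysis of GTP on alpha. Of 21 tested spots 7 were higher and 5 lower on both arrays, and the median was 0.02. At an unadjusted p under 0.05 in limma, 6 were higher and 0 lower, beside 15.9% and 14.8% of all tested spots. These were beta 4, gamma 12, gamma 10, gamma 3 and regulators of G-protein signaling 16 and 2. Beta 4 had 347 and 434 in Cy5 and 192 and 134 in Cy3, a log2 ratio of 0.86 and 1.69 with a mean of 1.27 (SE 0.28, n = 2) and an adjusted p of 0.0813 in limma. Gamma 12 had 2371 and 1747 in Cy5 and 956 and 1100 in Cy3, a log2 ratio of 1.31 and 0.67 (adjusted p 0.0937 in limma). Gamma 10 had 3961 and 3892 in Cy5 and 2052 and 2253 in Cy3, a log2 ratio of 0.95 and 0.79 (adjusted p 0.0895 in limma). Gamma 3 had 0.67 and 0.99. With normexp correction the mean of beta 4 was 0.92.

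Not all beta and gamma subunits were higher. Of 7 tested, 4 were higher and 1 lower on both arrays, with a median of 0.83. Gamma 2 had -0.22 and -0.76, and beta 1, the most widely used beta subunit, had 0.24 and -0.09. The spot named beta polypeptide 2-like 1, a scaffold that sits on the ribosome, had 17344 and 15082 in Cy5 and 20865 and 23315 in Cy3, a log2 ratio of -0.27 and -0.63. The 7 alpha subunits had means within 0.5 of 0, with 0 higher and 1 lower on both arrays. The stimulating alpha subunit, which activates adenylyl cyclase, had 6844 and 7718 in Cy5 and 7138 and 7305 in Cy3, a log2 ratio of -0.06 and 0.08. Regulator of G-protein signaling 16 had 217 and 220 in Cy5 and 78.2 and 125 in Cy3, a log2 ratio of 1.47 and 0.82 with a mean of 1.15 (SE 0.25, n = 2) and an adjusted p of 0.0822 in limma. With normexp correction its mean was 0.66. Regulators 11 and 19 were lower on both arrays, with means of -0.52 and -0.31, and regulator 7, in a spot near background, had -0.79 and 0.84.

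**Figure D5:**
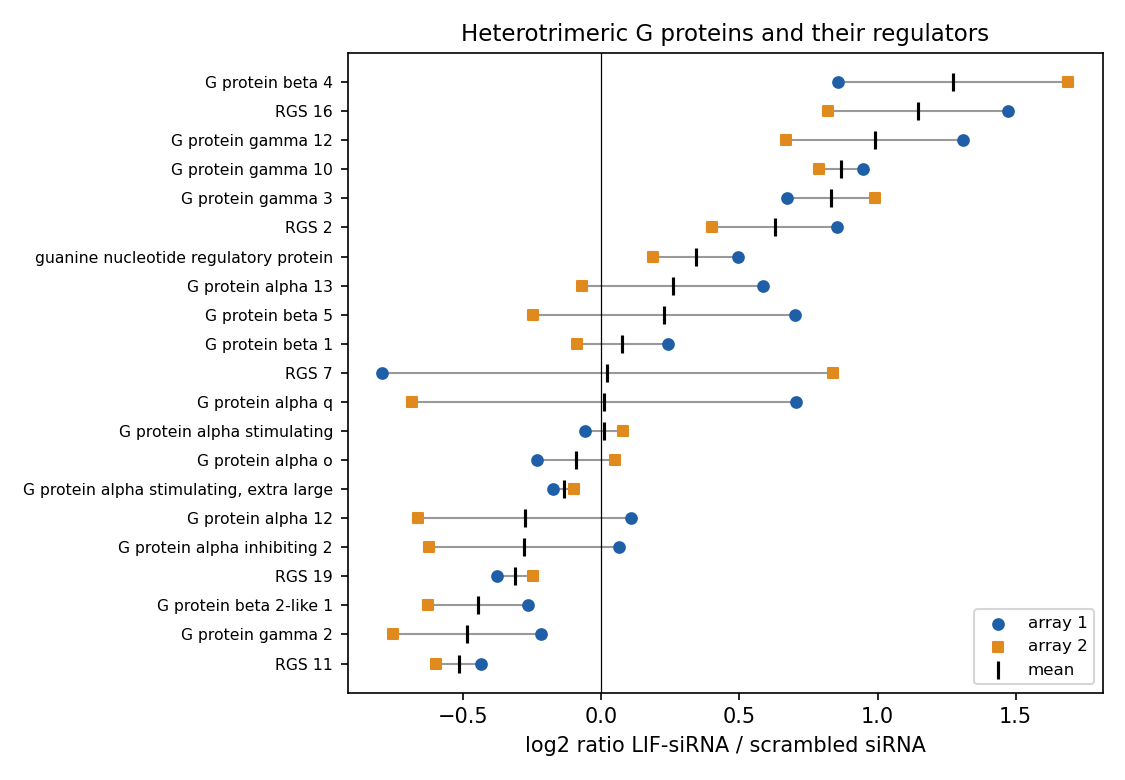
Log2 ratio of LIF-siRNA over scrambled siRNA for 21 spots of heterotrimeric G proteins and their regulators (RGS), sorted by their mean (black mark), with array 1 as circles and array 2 as squares joined by a line. Beta 4, RGS 16 and gamma subunits 12, 10 and 3 are above 0.6 on both arrays, and the means of the alpha subunits lie between -0.28 and 0.26.

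Other genes of these pathways were taken from 2 lists of names that are no members. The list of signalling genes around small GTPases gave 45 tested spots, of which 13 were higher and 22 lower on both arrays, with a median log2 ratio of -0.10, and limma counted 6 higher and 12 lower at an unadjusted p under 0.05, beside 15.9% and 14.8% of all tested spots. The stated criteria called 0 higher and 2 lower, beside 2.16% and 2.19% of all gene spots. GDP dissociation inhibitor 1, which extracts Rab proteins from membranes, had a log2 ratio of -1.89 and -1.53, and raf-related oncogene, a kinase below Ras, had -1.47 and -1.60. Cdc42, a GTPase of cell polarity, had -0.68 and -0.59. Growth factor receptor bound protein 2, which links receptors to Ras activation, had a mean of 0.70. Of the Ras exchange factors, son of sevenless 1 had 0.45 and 0.81, and son of sevenless 2 had -0.32 and 0.02, so its arrays differed in sign. The list of vesicle traffic genes gave 41 tested spots, of which 8 were higher and 20 lower on both arrays, with a median of -0.23, and 6 were higher and 7 lower at an unadjusted p under 0.05, against the same shares. Under the stated criteria 1 was higher and 1 lower. The higher one was annexin A8, which binds membranes with calcium, with 1.37 and 0.66, and the lower one was the transferrin receptor, the classical cargo of clathrin-coated vesicles, with -2.26 and -0.69. In limma with Benjamini-Hochberg adjustment 0 spots of either list passed. These lists were read against the same background as the members, 36.7% higher and 36.8% lower on both arrays over all tested spots.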

How the data were processed

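Per the file headers, the authors made the deposited files with Agilent Feature Extraction. For each spot, the authors gave intensity values for the mean brightness of both channels, their local background, the signal after background subtraction and the processed signal, which was also dye-normalized. The ratios were deposited on a log10 scale, red over green, and that software had already dye-normalized them by a lowess on rank-consistent spots. No genome build is named in the sources used here for the spots, which carry gene names and clone accessions. A series table of log2 values was deposited too and was not used.

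All ratios were turned into log2 values. Controls and outlier-marked spots did not enter. A spot was tested where each array had 1 channel or both well above background. The test was limma 3.58.1 in R 4.3.3 (lmFit on an intercept, then eBayes, two-sided), with Benjamini-Hochberg adjustment over all tested gene spots and a threshold of 0.05. Spots of 1 gene were kept apart. The fit was also run on values simulated from limma's own fitted model. These held no dye effect and no shared pool of RNA, so that run does not bear on those limits. Tables were made with Python 3.11.15, pandas 2.3.3 and numpy 2.4.6, and figures with matplotlib 3.10.9. The members, lists and roles were chosen with earlier results of these data known. Genes named were the members called by the stated criteria, the 5 highest and 5 lowest members with 1 sign and all channels well above background, the founding genes, the Rab GTPases and the brightest of each role, 49 spots in all, and others were named after their values were seen. Alternatives were normexp (offset 50) with loess, median centring, other filters and signal rules, outlier spots kept, genes averaged, an intensity trend, a one-sample test without pooled variance and each array left out. A version without lowess was added after the data were seen. Some members and 1 role are not reported here. The number of arrays (2) limits the precision.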

Additional observations from a re-analysis of the deposited data

How the results depend on the processing

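RhoG was lower by the stated criteria under every alternative run, and RhoN under all but those without array 1 and with both arrays required. Without lowess 12 named genes moved by more than their SD between arrays, and with normexp 5 did. By the stated criteria, 4 members were higher and 4 lower without the signal minimum, and 4 and 4 with well above background in its place. The higher ones were RAS, dexamethasone-induced 1, RhoC, G protein beta 4 and regulator of G-protein signaling 16, and the lower ones RhoN, RhoG, RhoB and vesicle-associated membrane protein 1. With the ratio and signal required on both arrays, 1 was lower (RhoG). With each array left out in turn, 3 to 4 members were higher and 2 to 3 lower, beside 176 to 260 and 215 to 266 of all 8712 gene spots. Without array 1 RAB17 and RhoG were among the lower ones, and without array 2 they were RhoG and RhoN. In limma with Benjamini-Hochberg adjustment, 1 member (RhoG) passed with normexp, 3 with median centring and 3 with both channels well above background (RhoN, RhoG and RhoB both times), 12 with an intensity trend and 12 without lowess. It passed 0 with no filter, with outlier spots kept, with genes averaged and in the one-sample test without pooled variance. Without lowess 16.5% of all spots passed, and with normexp 1.83%. The medians of roles moved as follows. With normexp they were -0.056 for SNARE proteins, 0.16 for sorting, caveolae and scission and 0.39 for secretin and secretogranin III. The ratio of caveolin 3, not well above background in Cy3, enters the value for sorting, caveolae and scission. Caveolin 3 was also among the 12 members that passed without lowess. Without lowess the medians were -0.19 for the Rab and -0.099 for the Ran system, and that of Ras and Rap was -0.054. That of G proteins was 0.22 and that of Arf -0.084. The main medians were -0.0035 for Arf, 0.012 for Ran, 0.53 for sorting, caveolae and scission and 0.70 for secretin and secretogranin III. The median of coats was -0.082 with normexp and -0.095 with spots of 1 gene averaged. With an array left out they ranged from -0.11 to 0.036 for Arf, -0.18 to -0.084 for Rab, -0.12 to -0.062 for SNARE proteins, -0.23 to 0.013 for coats, -0.069 to 0.24 for G proteins, 0.18 to 0.42 for sorting, -0.12 to 0.16 for Ras and Rap and -0.058 to 0.081 for Ran. The values for sorting include caveolin 3, and the median of 0.53 from the means of both arrays lies above that range. The medians of Arf, coats, G proteins, Ras and Rap and Ran thus change sign with 1 array left out. The cause was not tested. The limma fit on the ratios within each array is itself the paired comparison of both treatments, and no further replicate block exists. A limma fit on 1 array and a block for the slide could not be fitted. Dim spots, such as vesicle-associated membrane protein 1, are limited by signal over background.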
